A study of Mus musculus with 2 samples.

Results

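The genes described here are 10 members of the Notch pathway: the receptor genes Notch1, Notch2 and Notch3, Rbpj, which encodes the DNA-binding partner of cleaved Notch, and the target genes Dtx1, Hes1, Hey1, Heyl, Nrarp and Ptcra. They were chosen by name, through the gene symbol, accession or synonym of each probe, and not by a cut on their values. Earlier results of these data were known when they were chosen. The array files named 27598 genes by 41174 probes. Of these probes, 14 belonged to these genes, and 12 of the 14 passed a filter that kept 21539 probes well above background in 1 channel on both arrays. Each of the 10 genes had at least 1 probe that passed.

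RNA of double-positive (DP) thymocytes, the CD4+ CD8+ stage of T cell development, was compared on 2 mouse arrays with 2 colours. Cells of the genotype Bcl11bF/FCD4Cre/Tcra-/- were labelled with Cy5 and cells of TCRa-/- mice with Cy3. The first genotype carries a floxed Bcl11b gene and a Cre recombinase driven by Cd4 regulatory sequences, which become active around the DP stage. Both groups lacked the T cell receptor alpha gene, so neither could pass through positive selection. The study asked what the transcription factor Bcl11b does in DP cells before that step. The arrays are labelled as biological replicates 1 and 2, and no number or age of mice is given. The control carried no stated Cre or floxed allele, and dye followed genotype on both arrays, so Cre, dye and the loss of Bcl11b cannot be told apart. In bulk RNA, fewer cells of a type and less RNA per cell cannot be told apart either.

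Notch receptors are cut when a ligand on a neighbouring cell binds them, and the freed intracellular part joins RBPJ and Mastermind-like coactivators on DNA to switch on targets. In the thymus, Notch1 drives entry into the T lineage and supports early cells until they assemble a pre-T cell receptor, of which Ptcra encodes the invariant alpha chain. Notch signalling and many of its targets decline as cells become double-positive.

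Of the whole arrays, between 50.5% and 56.5% of the 43379 spots that were not controls were well above background in each channel. Bcl11b was lower in the deficient channel by both its probes. The brighter read -1.40 and -0.28 and the other -1.37 and -2.16 (log2 ratios on replicates 1 and 2), so the label was borne out unevenly on replicate 2. All 8 markers of DP cells that were examined, among them Cd4, Cd8a, Cd8b1, Rag1 and Rag2, were well above background in both channels of both arrays.

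Notch1 RNA was higher in the Bcl11b-deficient cells on both arrays, by about 1.78-fold, and so was that of Dtx1, by 1.62-fold. Heyl was higher by both its probes, 1 of which gave no control signal well above background. Notch2 and Notch3 had opposite signs on the 2 arrays (Notch3 only with some settings), and Rbpj and Ptcra read slightly lower on both, so the receptors and the targets did not move as a block. None of the 12 probes passed limma's moderated test after Benjamini-Hochberg adjustment (n = 2 arrays), where 0% of all 21539 probes passed and the smallest adjusted p was 0.0842. At an unadjusted limma p under 0.05 there were 8 of the 12, against 27.0% of all probes. Of the 8, both Notch1 probes, both Heyl probes and those of Dtx1, Hes1 and Nrarp were higher on both arrays. The Ptcra probe was lower on both. The 2 Notch1 probes adjoin each other. Hes1 and the brighter Heyl probe passed the filter through the deficient cells alone. By the brightest kept probe of each gene, 6 of the 10 genes had such a p, against 29.1% of all genes. Values below are log2 ratios of deficient over control, and errors are limma's moderated standard errors (SE).

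By direction, 7 of the 12 probes were higher on both arrays, against 36.6% of all probes, and 2 were lower on both, against 36.9%. The 7 include Hes1 and the brighter Heyl probe, which passed the filter through the deficient cells alone. Among the 10 probes well above background in both channels of both arrays, 5 were higher, against 34.9% of all such probes, and 2 were lower, against 36.9%. Of the 12, 7 were above 0 and 5 below on replicate 1 alone, and 10 were above and 2 below on replicate 2 alone. The median of all kept probes was -0.0036 on replicate 1 and 0.0017 on replicate 2, so about as many probes lay above 0 as below. A ratio of at least 0.5 on both arrays was reached by 4 probes, against 2.88% of all probes. They were both probes of Notch1, that of Dtx1 and the brighter one of Heyl. Measured in both channels were 3 of them, against 2.66% of all such probes, and none of these 3 reached 2-fold on both arrays, where 0.673% of all kept probes did. No member reached 0.5 in the other direction, where 1.57% of all probes did. Taking the brightest kept probe of each gene, the median of the 10 genes was 0.11 on replicate 1 and 0.31 on replicate 2, with 0.20 for the mean of both. The same median over all 14923 genes was 0.00.

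**Figure D1:**
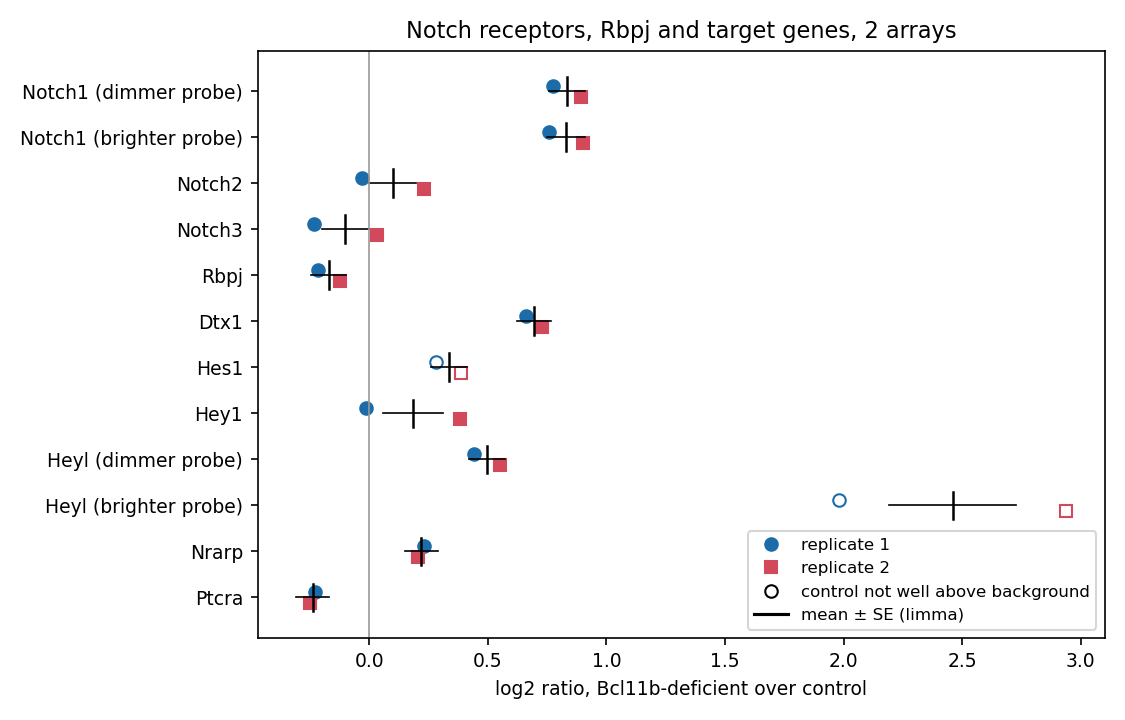
Log2 ratio of Bcl11b-deficient over control for the 12 member probes that passed the filter (x axis), with circles for replicate 1, squares for replicate 2 and black marks for the mean ± SE from limma. Open symbols mark probes whose control cells gave no signal well above background, and Notch1, Dtx1 and both Heyl probes lie to the right of 0 on both arrays.

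Notch1, the receptor of early T cell commitment, was measured by 2 adjoining probes on chromosome 2 (mm8 build), at 26281261 to 26281319 and at 26281319 to 26281378. The first was printed in 10 spots on each array, which gives the scatter of the measurement within an array. On replicate 1 its processed signals, which the scanner software had corrected for background and dye, ran from 4110 to 4734 in deficient cells (median 4466) and from 2365 to 2768 in control cells (median 2453). On replicate 2 they ran from 3412 to 3993 (median 3778) and from 1750 to 2142 (median 1934). Every deficient spot was thus brighter than every control spot of the same array. The log2 ratios of the 10 spots had an SD of 0.040 on replicate 1 and 0.028 on replicate 2.

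Averaged over spots, this probe read 0.76 and 0.90, averaging 0.83 ± 0.08 (limma adjusted p = 0.0919, n = 2 arrays). Spots on one array share a sample, so their tight scatter measures the array and not the mice. The other probe had 1 spot, with processed signals of 4344 and 3720 in deficient cells against 2423 and 1908 in control cells (replicates 1 and 2). It read 0.77 and 0.89, averaging 0.83 ± 0.08 (limma adjusted p = 0.0903, n = 2 arrays). The mean of the first probe was higher than that of 98.2% of all kept probes. Notch1 missed the threshold here, but both its probes passed with median centring in place of loess (1.09 and 1.08, limma adjusted p = 0.0367 and 0.0357), a setting that called 4.51% of all probes. Median centring raised the median of all probes to 0.12, and 848 of its 972 calls were higher. Both Notch1 probes also passed in a model of separate channels (limma adjusted p = 0.0395 and 0.0414), which called 5.72%.

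**Figure D2:**
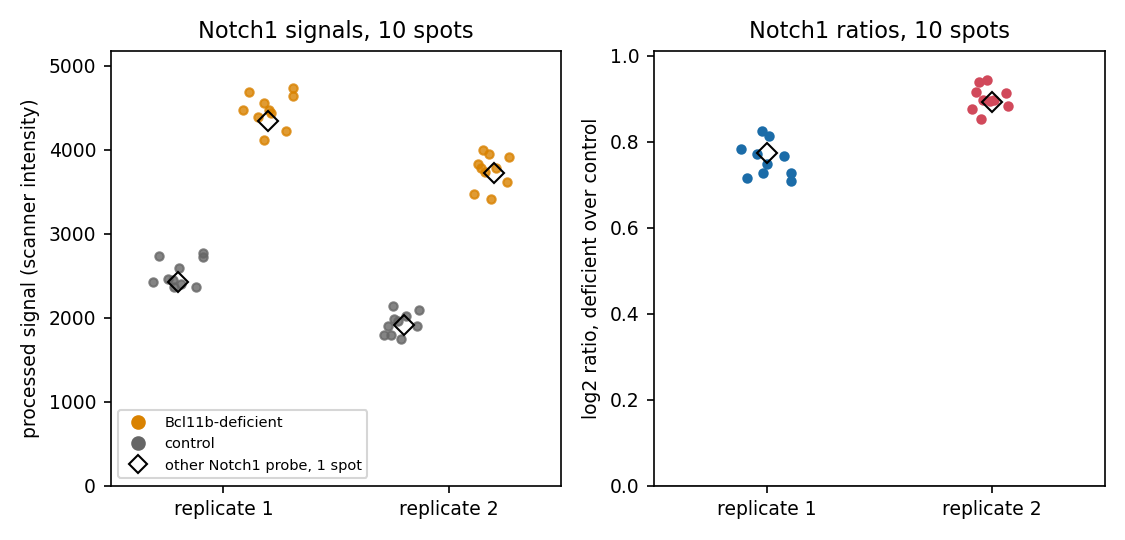
Notch1 by the probe printed in 10 spots: processed signal per spot in both channels (left) and log2 ratio per spot (right), by replicate. Points are spots, diamonds the 1 spot of the other Notch1 probe; deficient spots lie between 3412 and 4734 and control spots between 1750 and 2768.

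The other receptors had smaller ratios. Notch2 was represented by 3 probes on chromosome 3 (mm8), and those at 98232687 to 98232746 and 98234325 to 98234384 were not well above background in any channel, so only the one at 98235396 to 98235455 was analysed. Its processed signals were 582 and 517 in deficient cells against 601 and 442 in control cells (replicates 1 and 2), so the groups overlapped. It read -0.03 and 0.23, averaging 0.10 ± 0.10 (limma adjusted p = 0.548, n = 2 arrays).

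Notch3, a receptor that is itself a Notch target in early thymocytes, lay at 31849609 to 31849668 on chromosome 17 (mm8). Its processed signals were 2040 and 1777 in deficient cells against 2430 and 1818 in control cells (replicates 1 and 2), again with overlap between the groups. The ratios were -0.23 and 0.03, averaging -0.10 ± 0.10 (limma adjusted p = 0.544, n = 2 arrays), and median centring turned the mean to 0.13. With processed signals Notch3 was lower on both arrays, at -0.25 and -0.03, so its sign on replicate 2 depends on the normalization. Whether the ratio of Notch1 differs from those of Notch2 and Notch3 was not tested.

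Rbpj, the DNA-binding hub of the pathway, lay at 53944135 to 53944194 on chromosome 5 (mm8). Its processed signals were 429 and 321 in deficient cells against 531 and 366 in control cells (replicates 1 and 2). On each array the deficient signal was the lower one, but replicate 1 of the deficient group exceeded replicate 2 of the control. It read -0.22 and -0.13, averaging -0.17 ± 0.07 (limma adjusted p = 0.244, n = 2 arrays).

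Among the targets, Dtx1 was the nearest to Notch1 in its ratio. It encodes Deltex1, a ubiquitin ligase that binds Notch and is a standard reporter of Notch activity in thymocytes, and its probe lay at 120940886 to 120940945 on chromosome 5 (mm8). The deficient signals were 1595 and 1097 and the control signals 958 and 608 on replicates 1 and 2, so the deficient signal was the higher one on each array. The ratios were 0.66 and 0.73, averaging 0.69 ± 0.07 (limma adjusted p = 0.0922, n = 2 arrays). With median centring it read 0.86 and passed (limma adjusted p = 0.0401). That setting called 4.51% of all probes, and 848 of its 972 calls were higher.

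Ptcra, the pre-T cell receptor alpha gene, went the other way. Its probe lay at 46219187 to 46219247 on chromosome 17 (mm8), with processed signals of 2141 and 1493 in deficient cells against 2486 and 1867 in control cells (replicates 1 and 2). Within each array the deficient signal was lower, and the ratios of -0.23 and -0.25 lay close together. Their mean was -0.24 ± 0.07 (limma adjusted p = 0.159, n = 2 arrays). With median centring it read -0.01, at a median of all probes of 0.12.

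The upstream sequences of these 4 genes are shown because Notch1 and Dtx1 stood higher and Rbpj and Ptcra lower on both arrays, and because RBPJ reaches its targets through a short DNA motif. The 250 bases before each start site (RefSeq, GRCm38.p6 build, in the direction of the gene) were searched on both strands for the 6-base core TGGGAA, or TTCCCA on the opposite strand. Matches are in capitals.

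Notch1: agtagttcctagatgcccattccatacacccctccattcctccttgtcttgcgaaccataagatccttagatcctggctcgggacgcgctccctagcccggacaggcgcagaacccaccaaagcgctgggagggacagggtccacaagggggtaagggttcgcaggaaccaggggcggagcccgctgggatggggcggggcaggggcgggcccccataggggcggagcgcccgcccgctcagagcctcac
Dtx1: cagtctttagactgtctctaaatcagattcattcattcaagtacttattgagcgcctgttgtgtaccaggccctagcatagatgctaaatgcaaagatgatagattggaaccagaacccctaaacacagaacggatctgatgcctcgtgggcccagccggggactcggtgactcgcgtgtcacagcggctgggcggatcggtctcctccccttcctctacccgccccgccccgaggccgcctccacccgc
Rbpj: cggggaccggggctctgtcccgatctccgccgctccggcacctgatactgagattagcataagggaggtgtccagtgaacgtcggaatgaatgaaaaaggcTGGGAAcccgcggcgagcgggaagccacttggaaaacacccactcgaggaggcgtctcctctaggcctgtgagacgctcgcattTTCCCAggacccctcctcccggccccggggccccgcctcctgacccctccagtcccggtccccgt
Ptcra: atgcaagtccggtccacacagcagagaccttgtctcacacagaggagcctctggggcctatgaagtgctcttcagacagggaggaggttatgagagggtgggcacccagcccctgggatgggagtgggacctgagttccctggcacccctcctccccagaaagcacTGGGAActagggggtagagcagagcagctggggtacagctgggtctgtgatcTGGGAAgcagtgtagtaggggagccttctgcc

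The Notch1 stretch is chr2:26503823-26504072 on the minus strand and the Dtx1 stretch chr5:120711670-120711919 on the minus strand, and neither holds the letters. The Rbpj stretch, chr5:53590096-53590345 on the plus strand, holds 1 match on its own strand and 1 on the opposite strand, which begin 149 and 65 bases before the start. A second listed start of Rbpj shares the match on the opposite strand. The Ptcra stretch, chr17:46763713-46763962 on the minus strand, holds 2 matches on its own strand, which begin 84 and 32 bases before the start. The promoters of Notch2, Notch3 and Nrarp hold none, and Hes1, Hey1 and Heyl had no entry. Over all 32851 promoters, 21.6% hold at least 1 match and 2.77% at least 2. These arrays measured RNA only, so the letters describe the promoters and not binding.

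**Figure D3:**
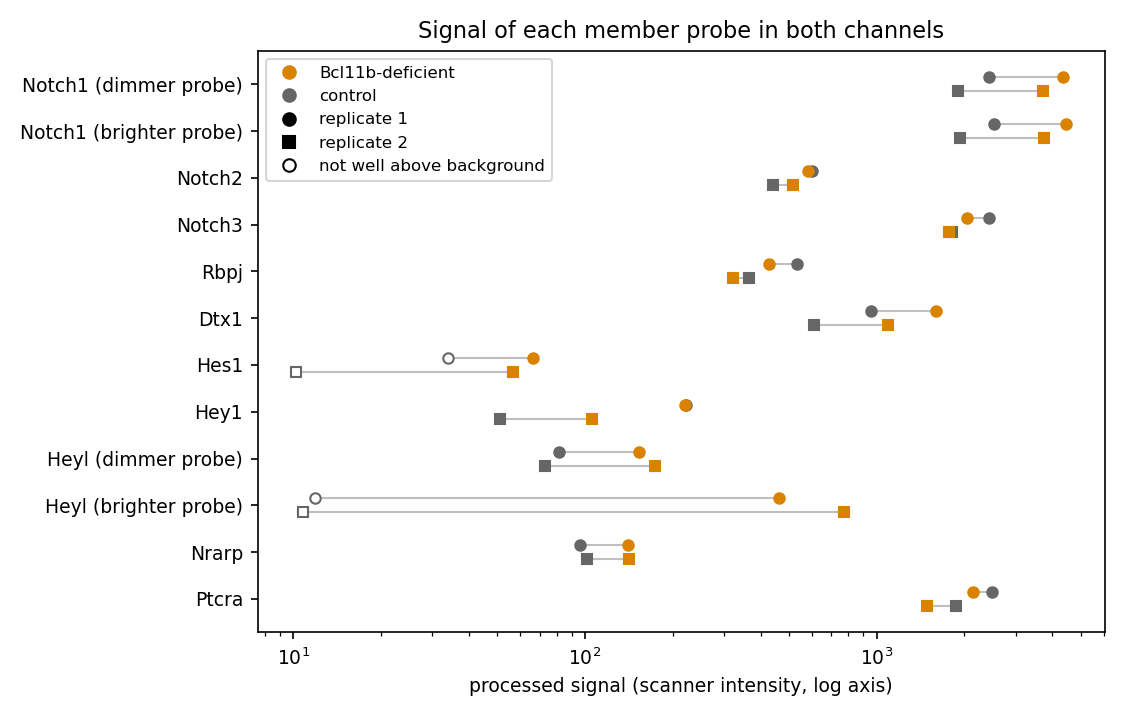
Processed signal (scanner intensity, log x axis) of each member probe that passed the filter, in the Bcl11b-deficient (orange) and control (grey) channels, with circles for replicate 1 and squares for replicate 2. Open symbols were not well above background, which holds only for the control cells with the Hes1 probe and the brighter Heyl probe.

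The remaining targets encode small transcriptional repressors or feedback inhibitors and were dimmer. Heyl, a repressor of the Hes and Hey family, had 2 probes whose starts lie 1487 bases apart on chromosome 4 (mm8). The brighter, at 122752035 to 122752094, gave processed signals of 462 and 775 in deficient cells against 11.9 and 10.8 in control cells (replicates 1 and 2). Neither array had a control signal well above background for it, so its measured mean ratio of 2.46 ± 0.27 (1.98 and 2.94 on the arrays, limma adjusted p = 0.0922, n = 2 arrays) depends on the offset and is not a measure of the fold. Set against the lowest control signal that was well above background, after normalization of both channels, this probe was at least 3.97-fold higher in the deficient cells.

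The other Heyl probe, at 122750548 to 122750607, was well above background in both channels of both arrays. Its processed signals were 153 and 173 in deficient cells against 81.2 and 73.0 in control cells. It read 0.44 and 0.55, averaging 0.50 ± 0.08 (limma adjusted p = 0.102, n = 2 arrays), or 1.41-fold. Both probes thus read higher in the deficient cells on each array, but they differed in size, at least 3.97-fold against 1.41-fold. With processed signals the dimmer probe averaged 1.08. They also differed in whether control cells gave a signal well above background. The full gap between the probes is not fixed, since the control level of the brighter one was not measured, and its cause was not tested. The brighter probe was the 1 member called with processed signals, where 0.139% of all probes were (0.0789% with the deposited value table, which called 0 of the 12). Its control values there are substitutes for dim spots, so that call rests on no measured control level. The dimmer one passed only with separate channels (limma adjusted p = 0.0416).

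Hes1, the canonical repressor induced by Notch, lay near background. Its probe aligned from 29985644 to 29985939 on chromosome 16 (mm8), a span longer than the probe. The deficient signals were 66.6 and 56.8, and the control signals of 33.9 and 10.2 were both below the well-above-background flag. The ratios of 0.28 and 0.39 (mean 0.33 ± 0.08, limma adjusted p = 0.126, n = 2 arrays) therefore give only a direction, and the bound was at least 1.10-fold higher. With processed signals the same probe read 1.72, and the spread between these values shows how little a signal so dim fixes the size.

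Nrarp, a feedback inhibitor that binds the Notch transcription complex, lay at 25004527 to 25004586 on chromosome 2 (mm8). Its processed signals were 140 and 142 in deficient cells against 96.5 and 101 in control cells (replicates 1 and 2). The ratios were 0.23 and 0.21, averaging 0.22 ± 0.07 (limma adjusted p = 0.176, n = 2 arrays), and processed signals gave 0.51.

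Hey1, a further repressor of the family, lay at 8646505 to 8646564 on chromosome 3 (mm8). It read 220 and 105 in deficient cells against 222 and 51.0 in control cells (replicates 1 and 2), so the arrays disagreed. The ratios were -0.01 and 0.38, averaging 0.18 ± 0.13 (limma adjusted p = 0.406, n = 2 arrays).

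**Figure D4:**
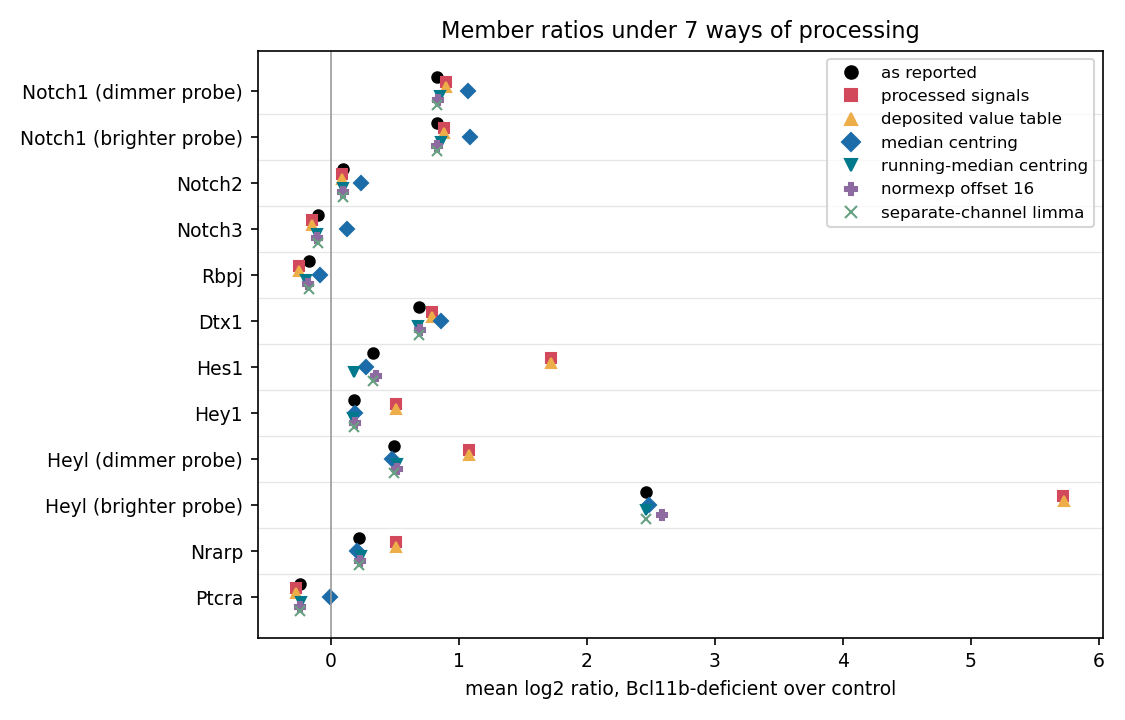
Mean log2 ratio of Bcl11b-deficient over control (x axis) of the 12 member probes under 7 ways of processing, each with its own symbol. Notch1 and Dtx1 stay between 0.69 and 1.09, whereas Hes1 reads from 0.18 to 1.72 and the brighter Heyl probe from 2.46 to 5.73.

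The rest of the pathway was read from lists of 69 genes, of which 68 were on the array and 58 passed the filter. Each gene was read by its brightest kept probe, unless another probe is named. Limma called 0 of the 58 after adjustment, against 0% of all genes, and 16 had an unadjusted p under 0.05, against 29.1% of all genes. On both arrays 22 were higher and 24 lower, against 36.4% and 38.5% of all genes, and the median was 0.00. Separate-channel limma called 4 of the 58, Tcf7 and Gata3 as higher and Dtx2 and Trib2 as lower, a share near the 5.72% of all probes. Median centring called 3, Tcf7, Gata3 and Hes6, near its 4.51% of all probes. All 3 were higher, as were 848 of the 972 probes which that setting called.

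Of the ligands and the fourth receptor, 3 of 7 passed the filter. Jag2 stood at 0.27 and 0.56 on replicates 1 and 2 (mean 0.42 ± 0.10) and Jag1 at 0.14 and 0.16, while Dlk1, a noncanonical ligand, stood at -0.07 and -0.04. The other kept Dlk1 probe, not well above background in control cells, read 0.11 and 0.07. Notch ligands act from neighbouring cells, and the Notch4 receptor and the ligand genes Dll1, Dll3 and Dll4 did not pass the filter.

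Of 13 kept genes that glycosylate or cleave the receptor, 6 were higher and 4 lower on both arrays, with a median of 0.03. Psen2, a catalytic presenilin of gamma-secretase, stood at 0.37 and 0.83 (mean 0.60 ± 0.14). The Fringe genes, whose enzymes modify the receptor's sugars, differed from each other, with Mfng at 0.33 and 0.73 (mean 0.53 ± 0.13) and Rfng at -0.22 and -0.18. Furin, the convertase that makes the first cut, stood at 0.11 and 0.51. Psenen and Aph1b, subunits of gamma-secretase, had means of -0.15 and -0.10.

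Of 19 kept nuclear cofactors, 6 were higher and 8 lower on both arrays, with a median of 0.01. The Groucho family gene Tle3 stood at 0.25 and 0.76 and the coactivator gene Maml2 at 0.14 and 0.79. The last was well above background in control cells of 1 array only. In the other direction, L3mbtl3 stood at -0.25 and -0.87 (mean -0.56 ± 0.18), Snw1 at -0.49 and -0.21 and the coactivator gene Maml1 at -0.61 and -0.03. These ratios differed widely between the arrays, as their errors show. Other kept probes read -0.15 and -0.19 for L3mbtl3, and 0.13 and -0.34 for Snw1.

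Among 12 kept genes of receptor turnover and trafficking, 2 were higher and 8 lower on both arrays, with a median of -0.06. Dtx2, a relative of Dtx1, had the lowest mean, with ratios of -0.68 and -0.40 (mean -0.54 ± 0.10, limma adjusted p = 0.112, n = 2 arrays), so these Deltex genes stood on opposite sides of 0. Dtx3 read 0.11 and 0.13. Fbxw7, whose ubiquitin ligase marks intracellular Notch for destruction, stood at -0.25 and -0.55 (mean -0.40 ± 0.11), and Mib2, a ligase for Notch ligands, at -0.37 and -0.17. Numb, an inhibitor of Notch, stood at 0.05 and 0.31 by its brightest probe. Its other kept probe read -0.20 and -0.20, so its direction is not settled.

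Of 11 other genes known to respond to Notch in some cells, 6 were higher and 3 lower on both arrays, with a median of 0.24. Tcf7, which encodes the T cell factor TCF1, stood at 0.74 and 0.64 (mean 0.69 ± 0.07, limma adjusted p = 0.0922, n = 2 arrays). Its other kept probe read less, at 0.37 and 0.29 (mean 0.33 ± 0.07, limma adjusted p = 0.125, n = 2 arrays). With processed signals the first Tcf7 probe averaged 0.43. Gata3, which is needed for T cell commitment, stood at 0.60 and 0.70 (mean 0.65 ± 0.08, limma adjusted p = 0.0936, n = 2 arrays). Myc was uneven, at 0.19 and 0.95. Trib2 stood at -0.61 and -0.85 (mean -0.73 ± 0.10, limma adjusted p = 0.0977, n = 2 arrays), Igf1r, the insulin-like growth factor receptor gene, at -0.11 and -0.57, and the D cyclin gene Ccnd3 at -0.07 and -0.07. Other regulators than Notch also act on these genes.

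**Figure D5:**
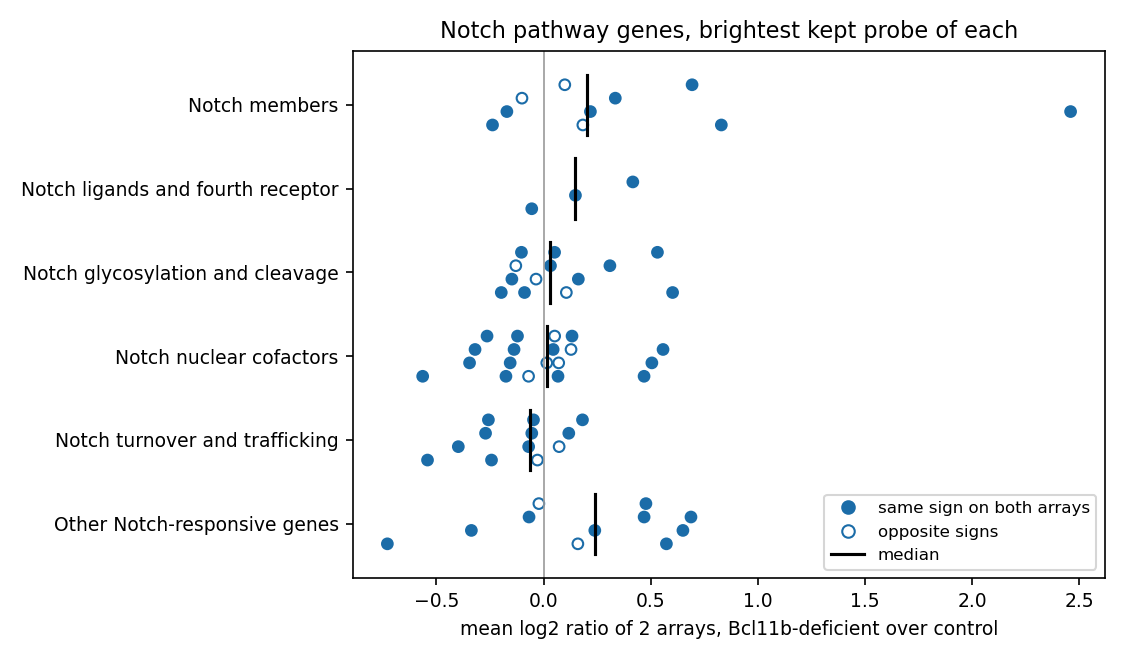
Mean log2 ratio of 2 arrays (x axis) for the kept genes of 6 lists, 1 point a gene by its brightest kept probe, filled where both arrays had the same sign. Black bars are medians, from -0.06 for turnover and trafficking to 0.24 for other Notch-responsive genes, with 0.20 for the members.

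Markers of DP cells and of other cell types were also examined. Markers of earlier, double-negative (DN) thymocytes, which carry high Notch1 and Dtx1, were higher on both arrays for 3 of 3 kept genes, Il2ra, Kit and Cd44, while Flt3 and Spi1 were not well above background in any channel. Over all genes, 36.4% were higher and 38.5% lower on both arrays. The summed processed signal of the DN markers was 1831 and 1697 in deficient cells against 1175 and 622 in control cells (replicates 1 and 2). Cd44 alone gave 1219 and 1309 of these sums against 701 and 430, and so most of each. Ptcra, the pre-T cell receptor gene of early thymocytes, was not in this list and read -0.23 and -0.25. Of 8 DP markers 2 were higher and 6 lower on both arrays, with sums of 176653 and 154443 in deficient cells against 229719 and 196051. The part of either group in the Notch1 and Dtx1 ratios was not tested.

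Stromal or endothelial markers, cells in which Heyl and Notch3 are also known, were higher on both arrays for 7 and lower for 2 of 10 kept genes, with Tek not well above background anywhere. Their sums were 7227 and 4069 in deficient cells against 4346 and 1382 in control cells. Pdgfrb, a marker of cells around small vessels, read 1.19 and 2.74, with processed signals of 987 and 1627 in deficient cells against 370 and 132 in control cells. The fibroblast genes Dcn and Col1a2 read 0.88 and 0.79, and 0.82 and 0.71. Of the kept endothelial genes, Pecam1 read 0.65 and 0.78, Kdr 0.02 and 0.01, and Vwf 0.14 and -0.11. Pdgfra and Epcam were lower on both arrays, at -0.10 and -0.12 and at -0.44 and -0.38. The part of such cells in the Heyl ratio was not tested.

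Macrophage or dendritic markers were higher for 6 and lower for 2 of 9 kept genes, with sums of 31030 and 31411 against 27868 and 11028. Lyz2 alone gave 25054 and 28033 of these sums against 23207 and 8756, and so most of the gap on replicate 2. NK and gamma delta markers were higher for 4 of 5, with sums of 4019 and 4335 against 1603 and 995. B cell markers were higher for 0 and lower for 2 of 4 on both arrays, with sums of 3808 and 2828 against 5934 and 3507, and Cd79a and Ebf1 not well above background. Erythroid markers were higher for 0 and lower for 1 of 3, with sums of 24596 and 43597 against 39935 and 10101, most of each from Hba-a1, and Ermap not well above background. Their part in the members' ratios was not tested.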

How the data were processed

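RNA of both genotypes was measured on 2 arrays, 1 sample of either genotype on each. Scans had been quantified by the authors in Agilent Feature Extraction 9.5.3.1, per the submitters' processing notes and the file headers. The deposited mean, background and processed signals are intensity values, and the last were corrected for background and dye by that program, with substitutes for dim spots, per the file headers. The deposited log ratio is a log10 of processed Cy5 over Cy3, and the deposited value table equals it to within 0.00500, with a median of 0 on each array.

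Mean signals were background-corrected with normexp (offset 50) and normalised by loess within arrays, control spots having weight 0 (limma 3.58.1 under R 4.3.3). Outlier spots were left out, the spots of a probe averaged, and the mean of 2 arrays tested against 0 with limma over all kept probes (threshold 0.05, Benjamini-Hochberg). The fit had 1 residual and 2.46 prior degrees of freedom. It was tested on simulated data. Ratios of dim probes are compressed by normexp. Only 2 arrays limit the precision. The p-values rest on the spread between these samples, moderated by the variance of all kept probes, which carried the larger weight. Probes were named by accession (24482), symbol (6242), synonym (2382) or the array file (8068). Alternatives were processed signals, the value table, median and running-median centring (501 probes), an offset of 16, other filters, separate channels, 1 probe a gene and each array alone. The members, lists and tests were chosen with earlier results of these data known. Every member was named, and of each pathway list the up to 3 highest and 3 lowest genes with 1 sign on both arrays, leaving out items not reported here. For a bound, the mean of the bright group was set against the mean of the dim group, at the lowest signal well above background on each array.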

Additional observations from a re-analysis of the deposited data

How the results depend on the processing

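The count of member probes called, 0 of 12, became 1 with processed signals, 4 with median centring and 4 with separate-channel limma, settings that called 30, 972 and 1231 probes in all. The value table called 0 members and 17 probes in all. The pathway genes called went from 0 to 3 with median centring and 4 with separate channels, and the Bcl11b probes called from 0 to 1 with either. Member probes lower on both arrays numbered 1 with median centring, 3 with processed signals or the value table (Notch3 added) and 4 without the filter, which adds the 2 dim Notch2 probes. The median of the members was 0.51 with processed signals and 0.51 with the value table. Median centring raised the median of all probes to 0.12 and turned Notch3 to 0.13. Each array alone gave 7 to 10 member probes higher, 2 to 5 lower and a median of 0.11 to 0.31. The median of all probes was then -0.0036 to 0.0017. Without replicate 1 and without replicate 2, Notch3 read 0.033 and -0.23, Hey1 0.38 and -0.014, and Notch2 0.23 and -0.032. The mean ratios of Notch1, Dtx1, Heyl, Hes1, Nrarp, Rbpj and Ptcra kept their sign in every setting run. That of Ptcra was near 0 with median centring, at -0.01 ± 0.09. The causes were not tested. The test of ratios within arrays already pairs the 2 samples of an array. Signal over background limits Hes1 and the control level of the brighter Heyl probe.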
